A study of Mus musculus with 24 samples.

Results

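The ubiquitin-specific proteases are the largest family of deubiquitinases, and 47 of their genes are described here through their transcript levels in the mouse adrenal gland. They were chosen by name: every gene whose symbol in the array platform's annotation is Usp followed by a number and an optional letter, except Usp2, out of 18193 named genes on the arrays. Each gene is represented by its brightest probe set, the group of short probes that reports 1 transcript or more. Of the 47 genes, 42 had a mean signal of at least 188.9, the minimum for a test, among 13873 named genes that reached it. Whole adrenals came from C57B/6J males aged 3 months, with no genetic change and no drug named in the labels, and time is the only factor in which the labels say that samples differed. The mice were entrained for 2 weeks to 12 h of light and 12 h of darkness, then released into constant darkness. Glands were taken every 4 h from 38 to 82 h after the last lights-off, with 2 arrays for each of 12 time points. Hours minus 12, modulo 24, give the projected circadian time (CT), in which CT 0 stands for the time of lights-on in the earlier schedule. Nothing in the labels ties an array to an animal, so the p-values cover the variation among these samples, part or all of which may be technical.

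Ubiquitin is a small protein that is joined to other proteins and marks them for the proteasome, for sorting at membranes or for a change of activity. Ubiquitin-specific proteases cut it off again with a catalytic cysteine, and members differ in where they act: on histones, at endosomes, at the proteasome or on DNA repair proteins. The turnover of clock proteins such as the PER and CRY repressors runs through ubiquitin, and Usp2 is known as a deubiquitinase whose own transcript cycles in many tissues. The adrenal gland has a steroid-producing cortex with a clock of its own around a medulla that makes catecholamines.

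The 24 arrays were counted as 18 profiles, 3 for each CT, because in 6 pairs of arrays every signal of at least 50 agreed within 5%, while the other pairs of the same CT differed far more. Each such pair was averaged to 1 profile. Of these pairs, 5 joined arrays taken 24 h apart. All 8 arrays of CT 10 and CT 18 stood apart from the other 16 in the ThrX-3 control probe set, at a signal of 512.8 to 1858 against 56.35 to 100.8. The 8 arrays are the second array set and the 16 the first. Markers of the cortex (7 of 7 measured) summed to a signal of 68053 to 71300 in the first set, 63171 to 67382 at CT 10 and 58697 to 68663 at CT 18, and those of the medulla (7 of 8 measured) to 34115 to 43251, 33998 to 36893 and 33359 to 41567, with no marker of either at 0. Markers of skeletal muscle (8 of 8 measured) summed to 569 to 681 in the first set, where Tnnt3 and Mylpf were listed at 0, to 611 to 12179 at CT 10 and to 1043 to 34310 at CT 18. Liver markers (6 of 7 measured, none at 0 throughout) summed to 873 to 3123, 1839 to 2370 and 2233 to 22283. In 4 profiles of the second set the muscle gene Acta1 exceeded a signal of 1000, and the array of 78 h replicate 2 had a 5' to 3' ratio of Gapdh signal of only 0.0386, against 0.822 to 1.148 on all others. In whole glands, fewer cells of a type and less RNA per cell cannot be told apart.

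Most of the family showed little 24 h variation. A 24 h cosine passed the test (limma moderated F test, Benjamini-Hochberg adjusted p under 0.05 over all 13873 genes) for 5 of the 42 tested members, namely Usp15, Usp8, Usp27x, Usp16 and Usp12, while 12.7% of all genes tested passed it. The share of the family is thus near that of all genes. The median amplitude, which is the distance on the log2 scale from the fitted mean to the peak, was 0.094 over the 42 members and 0.116 over all genes tested, and 15 members lay above the latter. The median fitted ratio of peak to trough was 1.139 for the members and 1.175 for all genes, and no member reached 2. Among the genes that passed, the median amplitude was 0.156 for the 5 members and 0.24 for all genes.

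With the array set as a block, which removes any constant difference between the sets, 9 members passed, the 5 above and Usp3, Usp11, Usp19 and Usp22, against 17.7% of all genes. Within the first set alone, at CT 2, 6, 14 and 22, 3 members passed, Usp13, Usp15 and Usp16, against 12.2% of all genes. Usp15 and Usp16 were the 2 members that passed in all 3 fits, as did 6.78% of all genes. Taking all 24 arrays as independent, near-copies included, 12 members passed, against 30.1% of all genes. Without 4 profiles of the second set with a high muscle signal (Acta1), 2 members passed, Usp15 and Usp16, against 7.2% of all genes, and with the block 6, Usp8, Usp11, Usp12, Usp13, Usp15 and Usp16, against 13.8%. Of the 1755 genes that passed without the block, 23% peaked from CT 4 to 8, and of the 2462 that passed with it 26.8% did. By the same bins, 1 of the 5 members and 5 of the 9 members peaked there. The second set is CT 10 and CT 18, so the block also takes out part of a rhythm that peaks near CT 14 or CT 2. Of all genes that passed, 16.1% peaked from CT 12 to 16 without the block and 12% with it. From CT 0 to 4 these shares were 17.4% and 10.3%, and from CT 16 to 20 they were 13.7% and 23%. The 5 of 9 are therefore not read as a shared peak time.

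**Figure D1:**
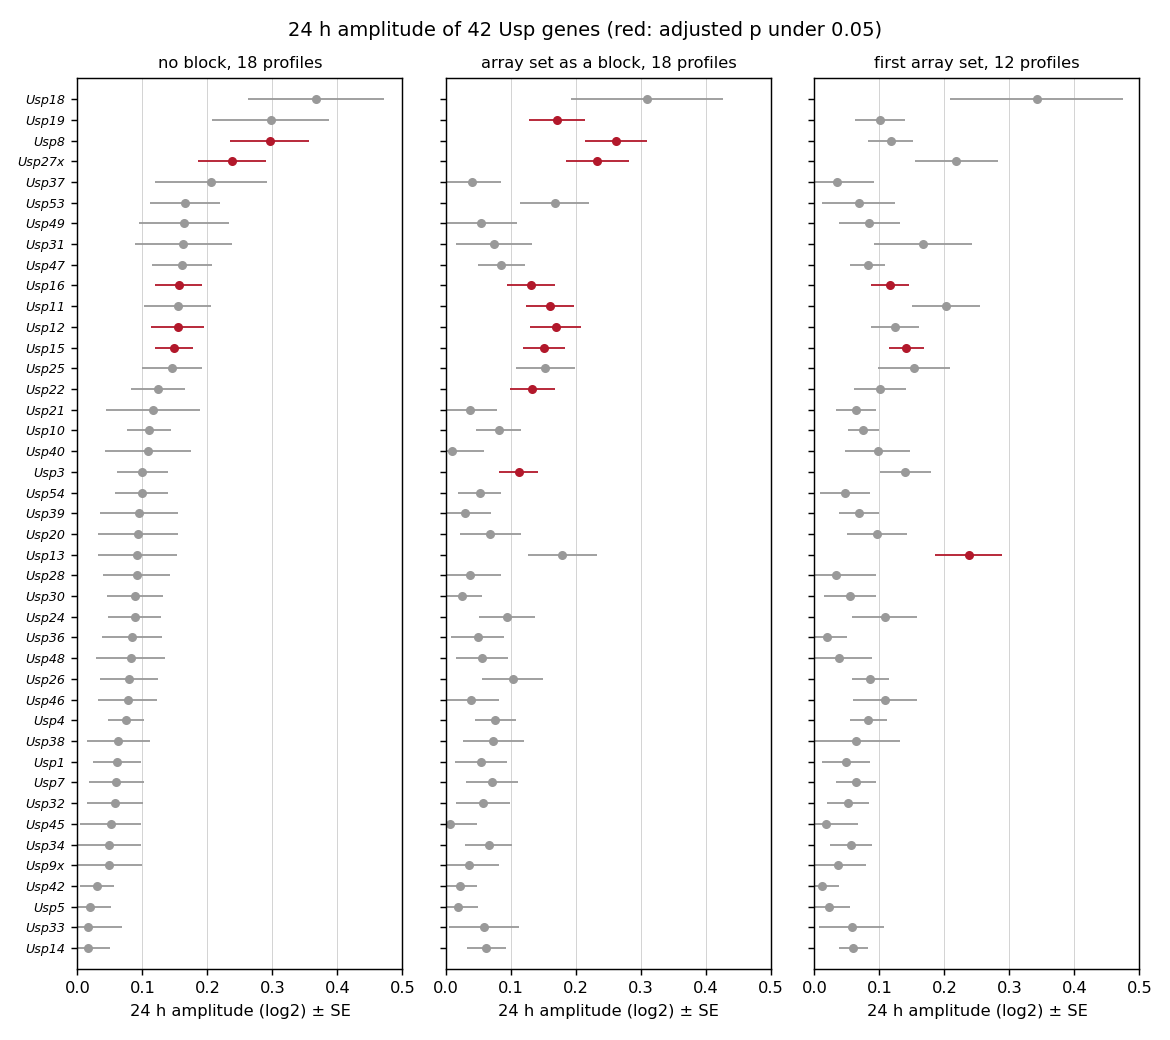
24 h amplitude on the log2 scale (horizontal axis) of each of 42 Usp genes (rows), as point and standard error, fitted over 18 profiles without a block (left), over 18 profiles with the array set as a block (middle) and over the 12 profiles of the first array set (right). Red points had an adjusted p under 0.05: 5, 9 and 3 genes, with Usp15 and Usp16 red in all 3 panels.

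Usp15, which shares its domain order with Usp4 and Usp11 and removes ubiquitin from signalling proteins, was highest at CT 14 and CT 18. Its signals were 574, 586 and 545 at CT 2, 541, 568 and 553 at CT 6, 604, 651 and 552 at CT 10, 650, 694 and 701 at CT 14, 665, 649 and 719 at CT 18, and 597, 588 and 580 at CT 22. All 3 profiles of CT 14 lay above the other 9 of the first set, so those groups did not overlap, whereas the CT 10 profiles reached from the low group to the CT 14 values. The amplitude was 0.148 ± 0.029 (SE, n = 18 profiles) with a peak at CT 15.86, a peak-to-trough ratio of 1.227 and a limma adjusted p of 0.00761. It was 0.151 with the block (adjusted p = 0.00873) and 0.141 within the first set (adjusted p = 0.0132).

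Usp16, which removes ubiquitin from histone H2A, had a similar course. Its signals were 791, 807 and 785 at CT 2, 775, 770 and 859 at CT 6, 897, 947 and 815 at CT 10, 958, 943 and 894 at CT 14, 935, 969 and 1141 at CT 18, and 883, 790 and 802 at CT 22. Again CT 14 lay above all other profiles of the first set, and the highest of all was 78 h replicate 2, at CT 18. The amplitude was 0.156 ± 0.036 (SE, n = 18 profiles), the peak CT 15.63 and the limma adjusted p 0.0215. The block gave 0.131 (adjusted p = 0.049) and the first set 0.116 (adjusted p = 0.0472), so both of these lay close to the threshold. The summed medulla markers read 34115 to 35764 at CT 2, 34649 to 40128 at CT 6, 39121 to 43251 at CT 14 and 35792 to 38435 at CT 22 in the first set, and 33998 to 36893 at CT 10 and 33359 to 41567 (median 34961) at CT 18 in the second. They were thus high at CT 14 with Usp15 and Usp16, but overlapped that level at CT 6, where Usp15 was lowest, and their part in the levels of Usp15 and Usp16 was not tested.

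Usp8, an endosomal protease that binds the STAM adaptors and acts on internalised receptors such as the EGF receptor, had the largest amplitude among the 5. Its signals were 1126, 1098 and 1183 at CT 2, 1117, 1167 and 1236 at CT 6, 1043, 1133 and 1194 at CT 10, 967, 1053 and 1106 at CT 14, 641, 735 and 627 at CT 18, and 1005, 1090 and 1002 at CT 22. The 3 profiles of CT 18 lay below all 15 others, with no overlap, and those others spanned 967 to 1236. The amplitude was 0.296 ± 0.061 (SE, n = 18 profiles) with a peak at CT 5.98 and a limma adjusted p of 0.0112. It was 0.262 with the block (adjusted p = 0.00316) but 0.117 within the first set, which holds no CT 18 (adjusted p = 0.0913), and 0.186 (adjusted p = 0.0757) without the 4 profiles of high Acta1.

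Usp27x, on the X chromosome, is a relative of Usp22 that can take its place in a histone deubiquitinating module. Its signals were 790, 929 and 698 at CT 2, 1070, 847 and 941 at CT 6, 1063, 1057 and 1062 at CT 10, 839, 879 and 721 at CT 14, 664, 933 and 749 at CT 18, and 695, 791 and 675 at CT 22. The profiles of CT 10 were close together and high, and those of CT 22 all lay below those of CT 6 and CT 10. The amplitude was 0.238 ± 0.052 (SE, n = 18 profiles) with a peak at CT 8.78 and a limma adjusted p of 0.0171. The amplitude was 0.233 with the block (adjusted p = 0.008) and 0.218 within the first set (adjusted p = 0.0906). Without the 4 profiles of high Acta1 the amplitude of Usp27x was 0.193 and the call was lost (adjusted p = 0.188).

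Usp12, which works with the WD-repeat proteins Wdr48 and Wdr20, had the weakest call of the 5. Its signals were 723, 646 and 757 at CT 2, 742, 728 and 797 at CT 6, 834, 800 and 736 at CT 10, 807, 810 and 746 at CT 14, 642, 674 and 518 at CT 18, and 630, 680 and 694 at CT 22. CT 18 lay below CT 6, 10 and 14 in every profile but overlapped CT 2 and CT 22. The amplitude was 0.154 ± 0.041 (SE, n = 18 profiles), with a peak at CT 8.94 and a limma adjusted p of 0.0481. It was 0.169 with the block (adjusted p = 0.015) and 0.124 within the first set (adjusted p = 0.0874). The call without the block was lost in 18 of the 30 fits that left out an array or a near-copy pair. Over all 30 the adjusted p was 0.0349 to 0.107. A dimmer probe set of Usp12, with a mean signal of 222, had an amplitude of 0.22 with a peak at CT 12.3 and did not pass (limma adjusted p = 0.307).

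As examples of promoters, the 120 bases before the start site are given for Usp16, with a late peak, and for Usp27x and Usp12, with earlier ones (RefSeq, GRCm38.p6, each 5' to 3' on the gene's strand). These are the 3 of the 5 members whose promoter in the table begins at the outer bound of the annotated gene. Usp15, which also peaked late, is not among them. Letters are in lower case, with the E-box CACGTG, the sequence that the CLOCK and BMAL1 activators bind, in capitals where it occurs. The stretches lie at chr16:87454865-87454984 (plus strand, Usp16), chrX:7375831-7375950 (minus strand, Usp27x) and chr5:146794957-146795076 (minus strand, Usp12).
Usp16: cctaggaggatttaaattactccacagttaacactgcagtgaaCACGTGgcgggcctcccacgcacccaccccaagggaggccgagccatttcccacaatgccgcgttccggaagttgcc
Usp27x: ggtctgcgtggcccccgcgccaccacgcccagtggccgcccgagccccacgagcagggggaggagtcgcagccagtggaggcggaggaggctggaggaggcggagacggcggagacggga
Usp12: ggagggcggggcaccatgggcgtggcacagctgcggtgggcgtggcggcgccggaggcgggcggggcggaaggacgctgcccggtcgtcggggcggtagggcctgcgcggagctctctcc
The E-box of Usp16 begins 77 bases upstream of the start, and neither of the other stretches holds those letters. Over 250 bases before to 50 after the start given in the table, which for some genes lies inside the outer bound of the gene, searched on both strands, 35 of the 47 members had a promoter in the table. CACGTG was found in 4 of them (Usp4, Usp16, Usp31 and Usp32), against 7.15% of all 32851 promoters, and CACGTT in 4 (Usp3, Usp24, Usp36 and Usp50), against 4.68%. AGGTCA, the letters that the REV-ERB and ROR receptors bind, was found in 2 (Usp10 and Usp20), against 16.3%. The D-box, as TTATGTAA or TTACGTAA, was found in 0, against 1.06%. The cAMP response element TGACGTCA was found in 1 (Usp29), against 1.79%, and its core TGACG, which overlaps it, in 13, against 20.8%. Among the 9 members that passed the test with the block, Usp16 was the only gene with CACGTG in this window, and these matches are letters and not measured binding. The other genes with CACGTG, Usp4, Usp31 and Usp32, did not pass the 24 h test with or without the block. Whether these letters go with the time of the peak was not tested.

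**Figure D2:**
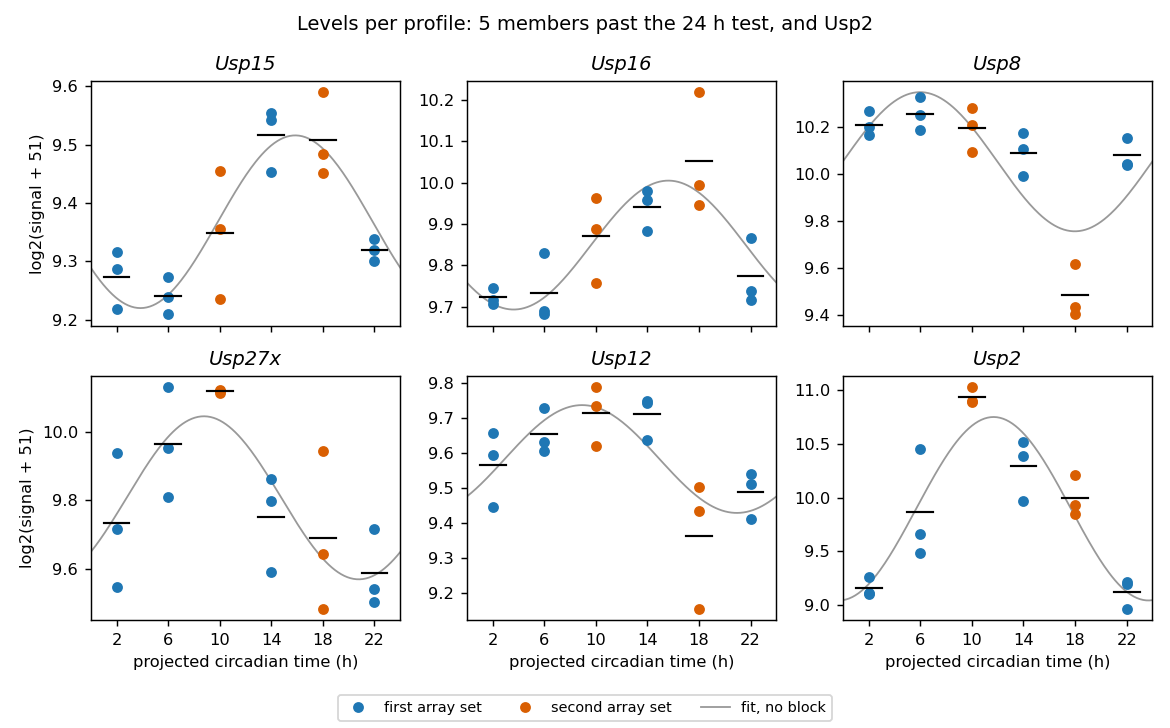
Level as log2(signal + 51) against projected circadian time in hours for Usp15, Usp16, Usp8, Usp27x and Usp12, the 5 Usp genes that passed the 24 h test, and for Usp2. Points are profiles (3 per time, blue for the first array set and orange for the second), bars are their means, the grey line is the 24 h cosine fitted without a block, and vertical scales differ between panels. Usp8 is low at CT 18 in all 3 profiles, while Usp15 and Usp16 are high at CT 14 and CT 18.

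Usp19, Usp22, Usp11 and Usp3 passed only with the block. Usp19, which exists in a form anchored in the endoplasmic reticulum, had signals of 2988, 2699 and 2675 at CT 2, 2593, 2470 and 2493 at CT 6, 1466, 1415 and 1535 at CT 10, 2773, 2636 and 2269 at CT 14, 1632, 2162 and 2185 at CT 18, and 2827, 2891 and 2677 at CT 22. All 6 profiles of the second set lay below all 12 of the first, and the mean log2 level differed by -0.626 (second minus first set), the largest gap among the 42 members. Array set and CT cannot be told apart in that gap. The 24 h amplitude was 0.297 ± 0.09 (SE, n = 18 profiles; limma adjusted p = 0.0808) without the block and 0.171 with it (peak CT 21.23, adjusted p = 0.0253). Within the first set it was 0.101 (limma adjusted p = 0.2). None of the other tested probe sets of Usp19 passed with the block (limma adjusted p = 0.221 to 0.663).

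Usp22, the histone deubiquitinase of the SAGA coactivator, read 2219, 2208 and 2605 at CT 10, of which 2 lay below the 2281 of the highest CT 6 profile, against 1784 to 1920 at CT 14. Its blocked amplitude was 0.133 ± 0.034 (SE, n = 18 profiles; peak CT 6.58, limma adjusted p = 0.0291). Usp11, a nuclear protease linked to repair by homologous recombination, read 870 to 934 at CT 10 and 573 to 695 at CT 22, and its blocked amplitude was 0.16 (peak CT 6.68, limma adjusted p = 0.016). Usp3, which acts on ubiquitinated histones H2A and H2B, read 586 to 633 at CT 10 and 438 to 510 at CT 22, with a blocked amplitude of 0.112 (peak CT 6.19, limma adjusted p = 0.0348). In these genes CT 10 and CT 22 did not overlap, but they lie in different array sets, whose log2 gap (second minus first) was 0.13 for Usp22, 0.216 for Usp11 and 0.147 for Usp3, so set and time cannot be told apart in that pair. Without the block their adjusted p was 0.108, 0.109 and 0.176. Without the profiles of high Acta1 the blocked calls of Usp22 and Usp3 were lost, as was that of Usp19, while that of Usp11 was kept.

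Usp13, a relative of the ubiquitin-recycling protease Usp5, was singled out after its values were seen, since it passed in the first set alone. Its signals there were 273 to 363 at CT 2, 300 to 369 at CT 6, 219 to 258 at CT 14 and 240 to 278 at CT 22. The amplitude within the first set was 0.237 ± 0.052 (SE, n = 12 profiles; limma adjusted p = 0.0235). At CT 10 and CT 18 its signals of 299 to 369 were in the upper part of that range, and over all profiles the amplitude was 0.092 (adjusted p = 0.493). A dimmer probe set of Usp13, with a mean signal of 261 against 301, had an amplitude of 0.156 within the first set. It did not pass there (limma adjusted p = 0.509), and its blocked peak was CT 23.1, against CT 3.23 for the brightest.

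Usp18, which removes the ubiquitin-like modifier ISG15 and is induced by interferon, had the largest amplitude of the family, 0.367 ± 0.104 (SE, n = 18 profiles), but also the widest spread, and did not pass (limma adjusted p = 0.0609, or 0.162 with the block). Its signals were 755, 545 and 742 at CT 2, 507, 597 and 612 at CT 6, 355, 344 and 358 at CT 10, 321, 502 and 386 at CT 14, 385, 348 and 497 at CT 18, and 289, 819 and 424 at CT 22. The 3 profiles of CT 22 spanned both the lowest and the highest value of the whole course. Usp47, a relative of Usp7, read 1072 to 1413 in the second set and 1374 to 1684 in the first, with an amplitude of 0.161 (limma adjusted p = 0.0631, or 0.216 with the block). Usp10, a partner of the stress granule protein G3bp1, had an amplitude of 0.11 (limma adjusted p = 0.0874) and Usp25 one of 0.145 (limma adjusted p = 0.0983).

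**Figure D3:**
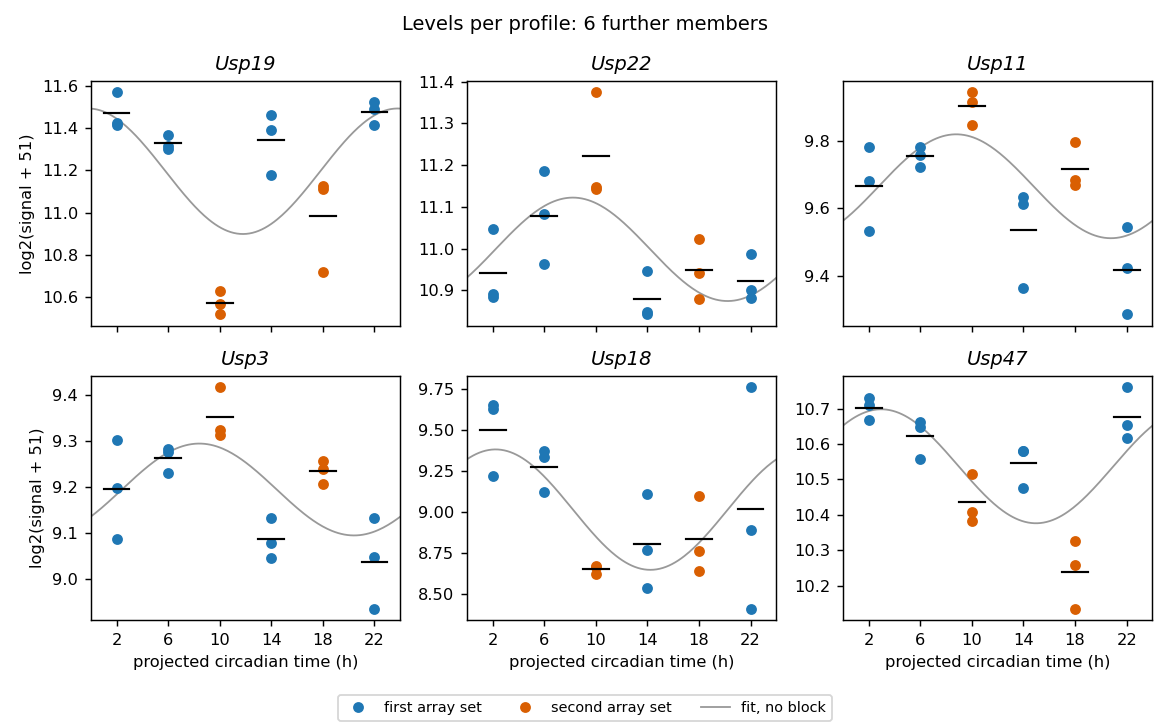
Level as log2(signal + 51) against projected circadian time in hours for Usp19, Usp22, Usp11 and Usp3, which passed the 24 h test only with the array set as a block, and for Usp18 and Usp47, which did not pass. Points are profiles (blue, first array set; orange, second), bars are means of 3, the grey line is the cosine without a block, and vertical scales differ. In Usp19 all orange points lie below all blue ones, and in Usp18 the CT 22 profiles span from 289 to 819 in signal.

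The difference between CT 18 and CT 10 lies within the second set and so does not rest on the gap between sets. It passed for 8 of the 42 members (limma contrast, adjusted p under 0.05), against 21.2% of all genes. Of these, 7 were lower at CT 18 (9.62% of all genes were) and 1, Usp19, was higher (11.6% of all genes were). Among brightest probe sets Usp8 differed most, with a log2 difference of -0.71 ± 0.077 (SE, 3 against 3 profiles, limma adjusted p = 1e-05). Usp53, a family member long described as lacking protease activity, read 555, 619 and 463 at CT 18 against 798, 853 and 666 at CT 10, a log2 difference of -0.466 ± 0.114 (SE, limma adjusted p = 0.00798). Usp27x and Usp12, described above, differed by -0.429 (limma adjusted p = 0.0193) and -0.35 (limma adjusted p = 0.01).

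Usp7, which stabilises the p53 regulator MDM2 among many substrates, read 1607, 1851 and 1858 at CT 18 against 2060, 2181 and 2303 at CT 10. These groups did not overlap, and the log2 difference was -0.294 ± 0.069 (SE, limma adjusted p = 0.00635). Usp22 differed by -0.274 (limma adjusted p = 0.0189) and Usp47 by -0.196 (limma adjusted p = 0.0456). The call of Usp47 was lost in 14 of the 30 fits that left out an array or a near-copy pair, with adjusted p from 0.0216 to 0.149. In the opposite direction Usp19 differed by 0.413 ± 0.096 (SE, limma adjusted p = 0.00585), from 1415 to 1535 at CT 10 to 1632 to 2185 at CT 18.

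Muscle and liver markers, given above, differed between these profiles, and their part in the differences was not tested. Without the 4 profiles of high Acta1, 1 profile was left at each time, 46 h replicate 2 and 54 h replicate 2, each assumed to vary like the other groups. In that fit 2 members passed, against 5.18% of all genes: Usp8 at -0.592 (limma adjusted p = 0.0108) and Usp19 at 0.594 (limma adjusted p = 0.0179). The other 6 did not pass in it, with log2 differences of -0.432 for Usp53, -0.231 for Usp12, -0.23 for Usp7, -0.201 for Usp22, -0.171 for Usp27x and -0.056 for Usp47. A fit of the second set alone left 1 call, Usp8 (limma adjusted p = 0.0147), against 5.62% of all genes. The count was 5 without 78 h replicate 2 (Usp7, Usp8, Usp12, Usp19 and Usp53; 18.5% of all genes) and also 5 without 46 h replicate 1.

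**Figure D4:**
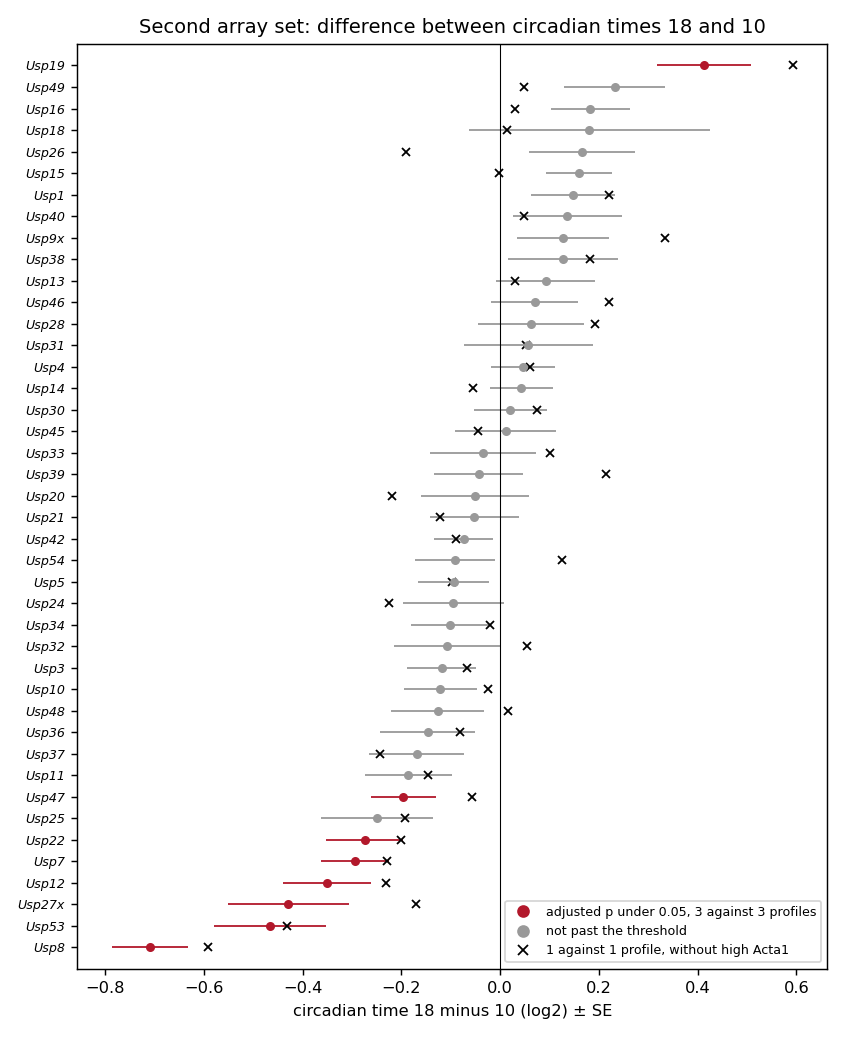
Log2 difference between CT 18 and CT 10 (horizontal axis) for each of 42 Usp genes (rows), as point and standard error over 3 against 3 profiles, red where the adjusted p was under 0.05. Crosses give the difference between the 2 profiles without high Acta1, 1 at each time. Usp8 at -0.71 and Usp19 at 0.413 mark the ends, and their crosses lie at -0.592 and 0.594.

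A test of any difference among the 6 circadian times passed for 25 of 42 members, against 54.1% of all genes. Of the 25, 9 were the members that passed the 24 h test with or without the block and 16 were not. This test takes in the gap between array sets, since CT 10 and CT 18 make up the second set. The log2 gap (second minus first) had a median of -0.062 over the members and -0.049 over all genes. In the second set 17 members were higher and 25 lower, and of all 13873 genes 5845 were higher and 8028 lower. The members thus leaned the same way as all genes. Without the profiles of high Acta1 the count was 15, against 43.4% of all genes.

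By role, the 6 tested histone and transcription proteases (Usp3, Usp16, Usp21, Usp22, Usp27x and Usp49) held 2 genes that passed the 24 h test without the block and 4 with it, with a median amplitude of 0.14, where 12.7% and 17.7% of all genes passed. Of these 6, only Usp16 passed within the first set. Without the profiles of high Acta1, too, it was the only gene of the group that passed, with or without the block. The role groups were drawn up with earlier results of these data known. The counts of the next groups, all of 7 genes or fewer, are read against the same 12.7% and 17.7%. Of the 3 paralogs Usp4, Usp11 and Usp15, 1 passed without and 2 with the block. Of the 7 partners of Wdr48 and DNA repair proteases (Usp1, Usp7, Usp10, Usp12, Usp28, Usp46 and Usp47), 1 passed in either fit, and of the 6 membrane and organelle proteases (Usp8, Usp19, Usp20, Usp30, Usp32 and Usp33), 1 passed without and 2 with it.

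By their brightest probe sets, none of the other groups held a gene that passed either fit (dimmer ones of Usp9x did, as given with the probe sets): Usp5, Usp13 and Usp14 of ubiquitin recycling and the proteasome, 5 large proteases such as Usp9x, Usp24 and Usp34, Usp18, the 3 inactive or atypical members Usp39, Usp53 and Usp54, the restricted gene Usp26 and 7 further genes. Usp14, which sits on the proteasome and trims ubiquitin chains there, had an amplitude of 0.016 in its brightest probe set. This was the smallest of the family together with that of Usp33, but with the block it was 0.062. The dimmer probe sets of Usp14 had amplitudes of 0.0947, 0.096 and 0.261 without the block, and none passed (limma adjusted p = 0.231 to 0.337). By brightest probe sets, the 24 tested members outside the rule for naming, Usp14 among them, had amplitudes of 0.016 to 0.205. Their limma adjusted p was 0.165 to 0.924, or 0.225 to 0.994 with the block.

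The 5 highest mean signals of the family were those of Usp19 (2349), Usp7 (2086), Usp33 (2060), Usp22 (2024) and Usp32 (1951). Signals of different probe sets depend on their probes, so this order is not an order of transcript number. Usp33, a relative of Usp20, ranged from 1676 to 2520 with an amplitude of 0.016, and Usp32, a membrane-anchored protease, from 1467 to 2215 with an amplitude of 0.058. Neither passed the 24 h test (limma adjusted p = 0.968 and 0.553). The 5 members below the signal minimum, not tested, were Usp9y, Usp29, Usp43, Usp44 and Usp50, whose profiles read 45.7 to 172.

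Of the 42 members, 25 had other probe sets above the minimum, 45 in all. Of these, 2 passed the 24 h test without the block (11.5% of all 23030 probe sets did) and 8 with it (17.4%). The second probe set of Usp27x had an amplitude of 0.213 with a peak at CT 9.64 (limma adjusted p = 0.0193), close to the 0.238 and CT 8.78 of the brightest, and 1 of the 4 dimmer ones of Usp7 passed at 0.136 (limma adjusted p = 0.0422). The 8 with the block were these 2, 1 each of Usp3 and Usp22, and 4 of Usp9x. The dimmer probe sets of Usp15 (393 and 197 in mean signal) and of Usp16 (191) did not pass, with limma adjusted p of 0.264, 0.313 and 0.589, so the 2 genes called in all 3 fits rest on their brightest probe sets. These carry the suffix for several transcripts of a gene, and with only probe sets free of any suffix 2 of 38 members passed, Usp8 and Usp27x, against 11.7% of all genes.

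Usp9x, a large X-linked protease that acts on many signalling and trafficking proteins, was singled out after its values were seen, because its probe sets disagreed. The brightest, with a mean signal of 1330, read 1088, 1466 and 1265 at CT 18 against 1072, 1153 and 1238 at CT 10, a log2 difference of 0.128 (limma adjusted p = 0.363), and did not pass the 24 h test. Of the next brightest pair, each with a mean signal of 1080, 1 read 515.8, 643.5 and 365 at CT 18 against 1085, 1141 and 951.5 at CT 10 and 1000 to 1398 in the first set, and the other read 484.2, 630.8 and 538.6 against 997.2, 993.6 and 849.3. In both, CT 18 lay below all 15 other profiles.

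Of the 5 dimmer probe sets of Usp9x, 4 were lower at CT 18, with log2 differences of -0.732 to -1.51 (limma adjusted p = 0.000127 to 0.00209), and the same 4 passed the blocked 24 h test with amplitudes of 0.275 to 0.54 and peaks from CT 7.63 to 7.79 (limma adjusted p = 0.00779 to 0.0366). None of the 4 passed within the first set, which lacks CT 18 (limma adjusted p = 0.269 to 0.519). In 78 h replicate 2, the array with the low Gapdh ratio, the probe sets with mean signals of 317 and 278 read 14.19 and 36.73. Both values are under the added constant of 51, and the first is part of the -1.51. Without 78 h replicate 2 the 4 differences were -0.72 to -1.01 and all passed. Without the profiles of high Acta1 they were -0.615 to -1.04, and 3 passed (limma adjusted p = 0.0214 to 0.0444, and 0.0632 for the other), whereas the blocked 24 h call was lost in all 4 (limma adjusted p = 0.07 to 0.17). The fifth, at -0.241, did not pass (limma adjusted p = 0.068). Which transcripts of Usp9x each probe set reports was not tested.

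Over all 45 dimmer probe sets the contrast of CT 18 and CT 10 passed for 13, against 23.4% of all probe sets in either direction. Of these, 11 were lower at CT 18, among them 4 of Usp7 and 4 of Usp9x, all read on the same arrays. By brightest probe sets, 9.62% of all genes were lower and 11.6% higher. Without the profiles of high Acta1, which left 1 profile at each time, a dimmer probe set of Usp31 read 0.793, against 0.353 over all profiles. Besides those of Usp9x, the largest difference was -1.02 in a probe set of Usp34, a large protease linked to Wnt signalling (limma adjusted p = 0.00113, or -0.503 and 0.0881 without high Acta1), while the brightest of Usp34 read -0.102 (limma adjusted p = 0.397). A dimmer probe set of Usp14 was higher at CT 18, at 0.301 (limma adjusted p = 0.0111), while its brightest read 0.043 (limma adjusted p = 0.688).

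For the same contrast, all 5 tested probe sets of Usp7 were lower at CT 18, with log2 differences of -0.272 to -0.85 and limma adjusted p of 0.0063 to 0.0361. Without 78 h replicate 2 the 4 dimmer ones did not pass (limma adjusted p = 0.0532 to 0.108). Without the profiles of high Acta1, which left 1 profile at each time, the 5 differences were -0.127 to -0.337, with -0.224 in place of -0.85. All 5 were read on the same arrays. Both probe sets of Usp22 were lower too (-0.274 and -0.451), as were both of Usp27x (-0.429 and -0.415). The 4 of Usp19 disagreed: 2 were higher at CT 18 (0.413 and 0.267, limma adjusted p = 0.00578 and 0.0244), while the other two read -0.197 and 0.0358 and did not pass. Usp47 had a second probe set at 0.101, which did not pass (limma adjusted p = 0.277) and had the opposite sign to its brightest.

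The 2 cycles were compared with CT as a factor over the 13 profiles that lie within 1 cycle. Of the 42 members, 0 passed (limma), and 0 of all 13873 genes did. At an unadjusted p under 0.05 there were 2 members and 1342 genes in all. These were Usp33, with a log2 difference of -0.183 (cycle 2 minus cycle 1, limma adjusted p = 0.494), and Usp27x, with -0.15 (limma adjusted p = 0.494).

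Beyond the family, 30 of 34 listed deubiquitinases of other classes were tested, and 2 passed both with and without the block, where 10.9% of all genes did, as did the 5 Usp members. Uchl5, the proteasome-bound ubiquitin hydrolase, had an amplitude of 0.178 with a peak at CT 18.42 (limma adjusted p = 0.0147), and Zranb1, a protease of the OTU class also called TRABID, had 0.185 with a peak at CT 9.66 (limma adjusted p = 0.0389). Neither passed within the first set, with amplitudes of 0.091 and 0.152 (limma adjusted p = 0.191 and 0.0777). Their highest means were at CT 18 and CT 10, both in the second set. In the contrast of CT 18 and CT 10, 9 of the 30 passed, 5 higher and 4 lower at CT 18, where 11.6% and 9.62% of all genes passed.

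Of 11 cofactors of these proteases, all tested, 1 passed both fits: Gmps, the GMP synthetase that binds Usp7, at 0.24 with a peak at CT 15.01 (limma adjusted p = 0.0239, or 0.0458 with the block and 0.0453 within the first set). The partners of Usp12 did not pass: Wdr48 had an amplitude of 0.03 (limma adjusted p = 0.807) and Wdr20 0.1 (limma adjusted p = 0.116). Stam2, a partner of Usp8, had 0.138 (limma adjusted p = 0.09), and Stam 0.056 (limma adjusted p = 0.394). Of the 6 listed genes for ubiquitin and its activating enzymes, 1, Uba6, was tested and did not pass (limma adjusted p = 0.225).

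For scale, Usp2 had signals of 498, 501 and 563 at CT 2, 1855, 2041 and 1854 at CT 10 and 447, 535 and 544 at CT 22, which do not overlap between CT 10 and either of the others. CT 10 lies in the second array set, and CT 2 and CT 22 lie in the first. The log2 gap of Usp2 (second minus first) was 0.858, so set and time cannot be told apart in these pairs. The amplitude of Usp2 was 0.855 ± 0.097 (SE, n = 18 profiles) with a peak at CT 11.68 (limma adjusted p = 0.000107). With the block it was 0.739 (limma adjusted p = 5.47e-05), and within the first set 0.702 (limma adjusted p = 0.00331). Over the 42 members, without the block, the largest amplitude was 0.367 and the median 0.094. The difference between Usp2 and each member was not tested.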

How the data were processed

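The deposited values are intensity per probe set on mouse Affymetrix arrays, linear and not logged. Their summary and scaling method was not given in the sources used here. The number of arrays limits the precision. Members, lists and alternatives were chosen with earlier results of these data known, and the array sets, the near-copy rule and the high Acta1 threshold come from those results.

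Before testing, 51 (the 10th percentile over all arrays) was added and log2 taken, which shrinks the differences of dim genes. Of 45101 probe sets, 34945 had 1 symbol, 932 several and 9211 none in the annotation, and 64 were controls. Probe sets with a mean signal under the 40th percentile, 188.9, were dropped, and the brightest stood for its gene. Coordinates and promoters are RefSeq's on GRCm38.p6, with 34741 of the named probe sets matched by gene identifier.

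limma 3.58.1 in R 4.3.3 (lmFit, eBayes with trend) tested the 24 h cosine and sine, any difference among the 6 CT, the contrast of CT 18 and 10, and the cycle. P-values were adjusted by Benjamini-Hochberg over 13873 genes, or over 23030 probe sets where other probe sets are given. The fits were tested on simulated data. Near-copies were pairs in which every signal of at least 50 agreed within 5%: the SD of their log2 ratio was at most 0.0418, against 0.2166 to 0.5161 in the 30 other pairs of equal CT. Named with full statistics were members past 0.05 in the 24 h test with or without the block or in the contrast, the 5 of highest mean signal, and members under 0.1 in the 24 h test. Of the other lists, genes past 0.05 with and without the block were named; other genes given by value were chosen after their values were seen. Alternatives covered the block, the first set alone, all 24 arrays, the added constant, quantile normalization, the filter, the probe set, the variance prior and left-out arrays.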

Additional observations from a re-analysis of the deposited data

How the results depend on the processing

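Of the 42 members, 5 passed the 24 h test. The count was 9 with the array set as a block, 8 with the block and without 78 h replicate 2 (added after the data were seen), 6 with the block and without profiles of high Acta1 (also added; 4 of them among the 5), 3 within the first set and 2 without profiles of high Acta1 (Usp15 and Usp16). Over all 24 arrays taken as independent, near-copies included, it was 12, and also 12 with the titles' replicate letter as a replicate block; the labels name no shared animal, litter or day for that letter. With only probe sets that carry no suffix it was 2 of 38: Usp15 and Usp16 were then read from dimmer probe sets, and Usp12, on the same probe set, had an adjusted p of 0.0509. Usp16 had an amplitude of 0.059 with its peak at CT 1.9. Leaving out only the suffixes that mark matches to other genes (added after the data were seen), it was 5 of 41, against 12.2% of all genes. Over the 30 fits that left out an array or a near-copy pair the count was 4 to 8, with 8 without 50 h replicate 2 and 8 without the pair of 50 h replicate 1 and 74 h replicate 2 (leaving out pairs was added after the data were seen). Usp8, Usp15, Usp16 and Usp27x passed in each of the 30. The count for any difference was 22 to 28 over these, and 15 without profiles of high Acta1. The contrast of CT 18 and 10 gave 8 members, 5 to 10 over the 30, with 5 without 46 h replicate 1 and 5 without 78 h replicate 2, 2 without profiles of high Acta1 and 1 in the second set alone. The cycle gave 0 in every fit run. Shares of all genes are not given for most of the 30 fits, for the block without 78 h replicate 2 or for the replicate block. Changes of count in those fits are therefore not read as particular to the members. The other planned settings (added constants of 1 and 4 times larger, quantile normalization, filters, the variance prior) kept each of these counts within 1.5 times. Dim genes near the added constant have understated differences.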
